A study of Mus musculus with 4 samples.

Results

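A set of genes that build or read silent chromatin were examined in mouse embryonic stem cells (ESCs) with and without the telomerase RNA gene *Terc*. They were *Trim28*, *Setdb1*, *Suv39h1*, *Suv39h2*, *Ehmt2*, *Cbx1*, *Cbx3*, *Cbx5*, *Atrx* and *Daxx*, a list by name of genes of H3K9 methylation, HP1 and ATRX-DAXX heterochromatin, and all 10 were found among the 24116 genes counted. RNA-seq was performed on poly(A) RNA of G3 *Terc*-/- ESCs (line F35, *Terc* knockout, the third generation of mice without telomerase RNA) and of wild-type (WT) ESCs (line N12, whose label carries G3 as well), both of the strain C57BL/6. The cells were grown on feeder cells with leukemia inhibitory factor and serum, and 2 libraries were made for each genotype. Each genotype was a single line, so the effect of the genotype and of the line cannot be told apart, and the RNA of feeder cells was not separated from that of the ESCs.

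In ESCs, many retrotransposons are kept silent by histone H3 methylated at lysine 9 (H3K9). KRAB zinc finger proteins bind the repeat and recruit TRIM28 (also called KAP1), a scaffold that brings the H3K9 methyltransferase SETDB1. The mark is bound by HP1 proteins, which help to compact the chromatin, and the ATRX-DAXX pair places the histone variant H3.3 into silent repeats and telomeres. SUV39H1 and SUV39H2 write the mark at pericentric repeats and telomeres, and EHMT2 (G9a) places the lower methylation states at genes and some repeats.

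Between 18047995 and 22520017 counts were assigned to genes per library, and edgeR's quasi-likelihood test was run on 14896 genes. Levels are given as CPM, the library's gene counts scaled to a common total with TMM factors, and a call means a Benjamini-Hochberg adjusted p-value under 0.05 over all genes tested. *Terc* had 7 and 2 counts in WT, and no count in either G3 *Terc*-/- library, which allows up to 3 counts each. The 12 ESC markers were present in every library, with a summed level of 6922 and 7047 CPM in WT and of 8338 and 8701 CPM in G3 *Terc*-/- ESCs, where 9 were higher and 3 (*Dppa5a*, *Lin28a* and *Utf1*) were lower. Of the 14 feeder fibroblast markers tested, 8 were higher and 1 was lower, none of the 15 listed was at 0 in any library, and their summed level went from 1878 and 1590 to 2485 and 2126 CPM. Without *Fn1*, which encodes fibronectin, the sum was 740.3 and 581.9 CPM in WT and 789.6 and 620.2 CPM in G3 *Terc*-/- ESCs, and the groups overlapped. *Fn1* was 1 of the 8 higher markers, and the rest of the 8 stayed in this sum. Its largest part was *Sparc*, at 314.2 and 300.4 CPM in WT and 329.9 and 302.9 CPM in G3 *Terc*-/- ESCs, which was not called. Of the 6 primitive endoderm markers, 3 (*Gata6*, *Dab2* and *Gata4*) were lower, and their summed level went from 35.03 and 31.89 to 22.8 and 16.6 CPM. The part of feeder RNA, or of these marker differences, in the results below was not tested.

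Of the 10 genes, *Cbx3*, *Atrx*, *Cbx1* and *Ehmt2* fell in the G3 *Terc*-/- line relative to WT, *Trim28* rose, and *Setdb1*, *Suv39h1*, *Suv39h2*, *Cbx5* and *Daxx* did not pass the test. The largest change was that of *Cbx3*, which encodes HP1 gamma and fell by 57.8%. Among all genes tested, 21.8% were called lower and 21.7% higher, against 4 lower and 1 higher of these 10. Among the 7027 genes that average 500 counts or more, a level that all 10 exceed, 28.5% were lower and 22.2% higher. The median log2 fold change of the 10 genes was -0.12, and that of all genes tested was 0.0062. At the cutoff the study used for genes, a fold change over 2 with an unadjusted p under 0.05, *Cbx3* was the single member that passed, where 3.13% of all genes passed as lower and 4.73% as higher. In bulk RNA, fewer cells of a type and less RNA per cell cannot be told apart.

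**Figure D1:**
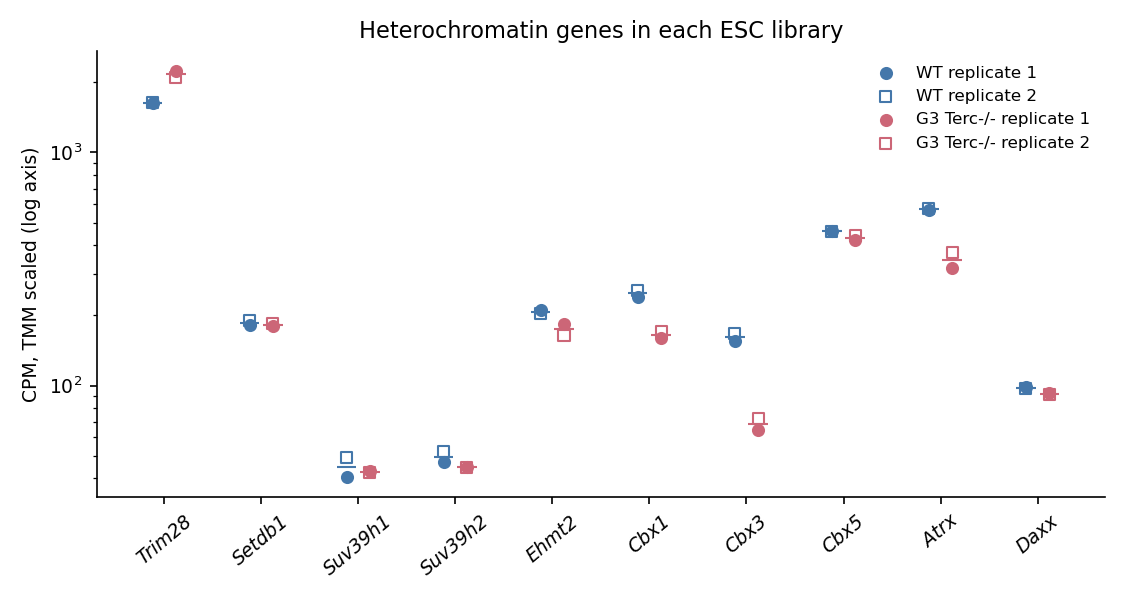
CPM of each of the 10 genes (log axis) in the 2 WT and the 2 G3 *Terc*-/- libraries, with short lines at the group means. The G3 *Terc*-/- points of *Cbx3* sit at 64.4 and 72.2 CPM against 155.7 and 167.2 CPM in WT, whereas those of *Setdb1* lie among the WT points.

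*Trim28*, the scaffold that links KRAB zinc fingers to the silencing enzymes (gene identifier 21849, chr7:13024152-13031032, plus strand of GRCm38), rose in G3 *Terc*-/- ESCs. Its level was 1632 and 1633 CPM in the WT libraries and 2233 and 2105 CPM in the G3 *Terc*-/- libraries. Both G3 *Terc*-/- libraries lay above both WT libraries. This was a log2 fold change of 0.41 (standard error 0.047, 95% interval 0.32 to 0.50, edgeR adjusted p = 9.46e-10), or a level 32.9% higher, and the difference exceeded the gap between replicates of either genotype.

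*Setdb1*, the H3K9 methyltransferase that TRIM28 recruits (chr3:95323525-95357202, minus strand), was at 182.7 and 189.4 CPM in WT and at 180.7 and 184.7 CPM in G3 *Terc*-/- ESCs. The groups overlapped. The log2 fold change was -0.03 with a 95% interval from -0.13 to 0.078 (edgeR adjusted p = 0.711). *Setdb1* overlaps *Cers2* in the annotation, and *Cers2* had up to 1247 counts in a library.

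The SUV39H enzymes, which write trimethylated H3K9 at pericentric repeats and telomeres, had the lowest levels per exon length of the 10 genes. *Suv39h1* (X chromosome, 8061171 to 8074760, minus strand) was at 40.6 and 48.9 CPM in WT and at 43.2 and 42.2 CPM in G3 *Terc*-/- ESCs. The G3 *Terc*-/- values lay between the WT values, and the fold change was within that spread (log2 fold change -0.07, 95% interval -0.22 to 0.087, edgeR adjusted p = 0.501). Its sign rested on 1 library, since without WT replicate 2 the log2 fold change was 0.07148 (edgeR adjusted p = 0.649, between 0.12 and 0.686 over all alternatives). *Suv39h2* (chr2:3455815-3474986, minus strand) was at 46.8 and 51.9 CPM in WT and at 44.8 and 44.4 CPM in G3 *Terc*-/- ESCs. Both G3 *Terc*-/- libraries lay below the WT libraries, but with a log2 fold change of -0.15 the adjusted p-value of edgeR was 0.0962. *Suv39h2* overlaps *Dclre1c*, which had up to 669 counts in a library.

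*Ehmt2*, which encodes the methyltransferase G9a (chr17:34898463-34914073, plus strand), was at 210.1 and 204.3 CPM in the WT and at 184.4 and 164.3 CPM in the G3 *Terc*-/- libraries. Both G3 *Terc*-/- libraries were below both WT libraries. The log2 fold change was -0.25 (standard error 0.054, edgeR adjusted p = 2.51e-04), and the level fell by 15.8%, the least of the called changes. *Ehmt1*, which encodes GLP, the partner of G9a in the active heterodimer, also fell, from 119.3 and 114.0 CPM to 93.8 and 85.4 CPM (log2 fold change -0.38, standard error 0.059, edgeR adjusted p = 1.16e-06). The share of *Ehmt2* in the summed RPKM (CPM per kilobase of exon) of *Ehmt1* and *Ehmt2* was 71.9% and 72.2% in WT and 74.1% and 73.6% in G3 *Terc*-/- ESCs, so the pair stayed close to the same ratio (difference 1.79 percentage points, two-sided exact permutation p = 0.33, the smallest that 2 libraries against 2 can give).

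**Figure D2:**
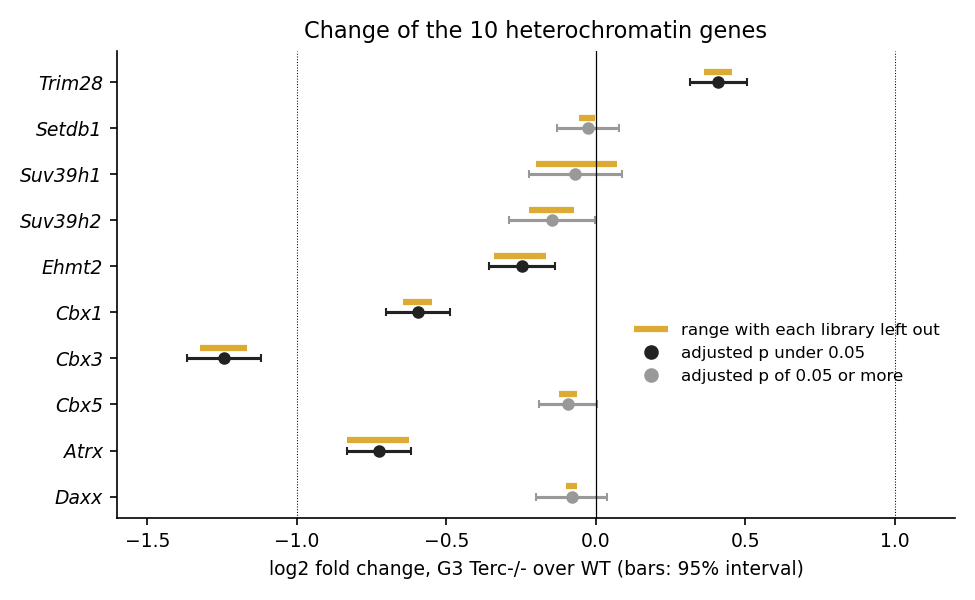
Log2 fold change (G3 *Terc*-/- over WT) of each gene with its 95% interval, in black where the adjusted p is under 0.05 and in grey otherwise, and in yellow the range when each library was left out in turn. Dotted lines mark a fold change of 2, which *Cbx3* alone passed at -1.24.

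The 3 HP1 genes encode paralogous readers of methylated H3K9 and did not change to the same extent. *Cbx1* (HP1 beta, chr11:96788680-96808982, plus strand) was at 240.4 and 256.6 CPM in WT and at 159.5 and 169.9 CPM in G3 *Terc*-/- ESCs. *Cbx3* (HP1 gamma, chr6:51470154-51483704, plus strand) was at 155.7 and 167.2 CPM in WT and at 64.4 and 72.2 CPM in G3 *Terc*-/- ESCs. For both genes the WT and G3 *Terc*-/- libraries were well apart. The log2 fold change was -0.59 for *Cbx1* (standard error 0.053, 95% interval -0.70 to -0.49, edgeR adjusted p = 1.41e-12), so that its level fell by 33.8%. The log2 fold change of *Cbx3* was -1.24 (standard error 0.061, 95% interval -1.37 to -1.12, edgeR adjusted p = 9.09e-21). The intervals of *Cbx1* and *Cbx3* did not overlap. *Cbx5* (HP1 alpha, chr15:103191546-103239904, minus strand) was at 459.9 and 457.1 CPM in WT and at 419.9 and 439.9 CPM in G3 *Terc*-/- ESCs, lower in both but not called (log2 fold change -0.09, 95% interval -0.19 to 0.0038, edgeR adjusted p = 0.115).

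Per exon length, the summed level of the 3 HP1 genes was 229.5 and 241.7 RPKM in WT and 145.2 and 155.7 RPKM in G3 *Terc*-/- ESCs. The share of *Cbx3* in this sum was 34.6% and 35.3% in WT against 22.6% and 23.7% in G3 *Terc*-/- ESCs, a mean of 34.9% ± 0.48 (SD, n = 2) and 23.1% ± 0.75 (SD, n = 2). The share of *Cbx5* was 22.3% and 21.04% in WT against 32.2% and 31.4% in G3 *Terc*-/- ESCs. Per exon length, *Cbx1* held between 43.1% and 45.2% in every library, whereas per coding length its share was lower in both G3 *Terc*-/- libraries than in WT. A level per coding length is the CPM of the whole gene, not of its coding bases alone, divided by its coding length. The differences between genotypes were larger than those between replicates, and each had a two-sided exact permutation p of 0.33, the smallest this design allows. With coding length in place of exon length, the difference in the share of *Cbx3* was -8.64 percentage points in place of -11.8. The order of *Cbx3* and *Cbx5* in WT also turned with the length, since per coding length *Cbx3* was below *Cbx5* in all 4 libraries. *Cbx5* then made up the largest part of the sum, at a mean of 800.2 RPKM in WT and 750.3 RPKM in G3 *Terc*-/- ESCs. It has 8988 exon bases but 573 coding bases, so reads outside the coding bases can raise this value. The summed level thus fell by a smaller fraction per coding length than per exon length.

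**Figure D3:**
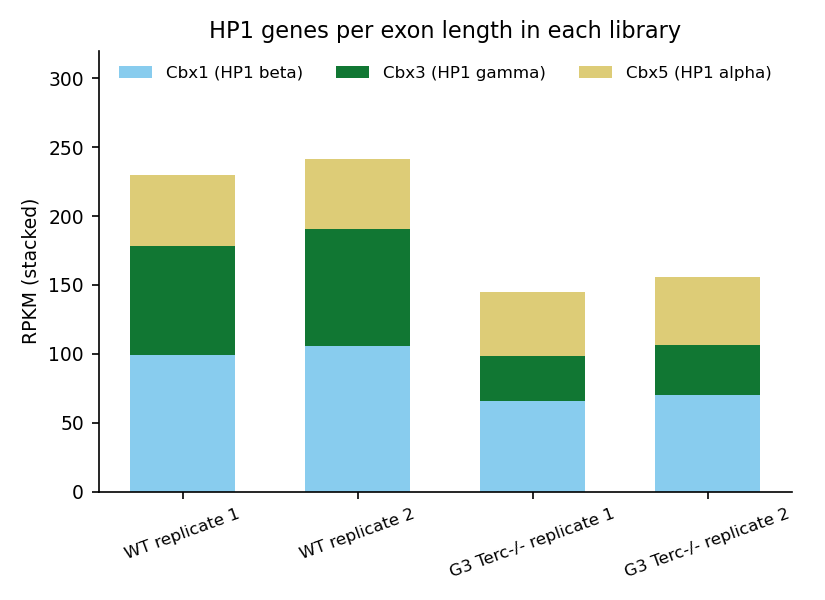
RPKM of *Cbx1*, *Cbx3* and *Cbx5* stacked for each library, with the axis starting at 0. The full bars reach 229.5 and 241.7 RPKM in WT and 145.2 and 155.7 RPKM in G3 *Terc*-/- ESCs, and the middle segment, *Cbx3*, shrinks most.

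The HP1 genes and the SUV39H genes are paralogs, so it was checked whether their reads could be exchanged. The longest stretch that the coding sequences of each pair share without a mismatch is printed here, because reads longer than it differ between the paralogs. They are given 5′ to 3′ on the coding strand and come from the GENCODE M21 transcripts.
Cbx1 and Cbx3: aagtggaaggg
Cbx1 and Cbx5: gaggaatatgtggtggaaaa
Cbx3 and Cbx5: aatacttgggaacc
Suv39h1 and Suv39h2: cacctacctctttgacctggactacg
The coding sequences of *Cbx1* (558 bases), *Cbx3* (552 bases) and *Cbx5* (576 bases) were 72.2% to 72.6% identical, and those of *Suv39h1* (1242 bases) and *Suv39h2* (1434 bases) were 64.7% identical. Over whole transcripts, the longest shared run was 20 bases among the HP1 genes and 26 bases between the SUV39H genes, shorter than the reads. *Cbx3* also has 6 named pseudogenes, none of which had a row in the gene counts, so reads that fit both *Cbx3* and a pseudogene are uncertain.

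*Atrx*, the chromatin remodeller that acts with DAXX (X chromosome, 105797615 to 105929372, minus strand), was at 565.2 and 574.9 CPM in WT and at 319.8 and 370.7 CPM in G3 *Terc*-/- ESCs. The G3 *Terc*-/- replicates differed more from each other than the WT replicates did, yet both were far below WT. The log2 fold change was -0.72 (standard error 0.053, 95% interval -0.83 to -0.62, edgeR adjusted p = 4.51e-15), and the level fell by 39.5%. *Daxx*, the H3.3 chaperone of the pair (chr17:33909404-33915590, plus strand), was at 98.7 and 96.7 CPM in WT and at 93.3 and 91.4 CPM in G3 *Terc*-/- ESCs. Its groups did not overlap but the change was not called (log2 fold change -0.08, 95% interval -0.20 to 0.037, edgeR adjusted p = 0.269). The ratio of *Atrx* to *Daxx* in RPKM was 1.28 and 1.33 in WT and 0.765 and 0.904 in G3 *Terc*-/- ESCs, lower in both (two-sided exact permutation p = 0.33). Per coding length the ratio was 1.69 and 1.76 in WT and 1.014 and 1.199 in G3 *Terc*-/- ESCs, so the direction stayed but which gene had the higher level in G3 *Terc*-/- ESCs depended on the length used.

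Compared per exon length, the order of the genes in WT ESCs ran from *Trim28* at 503.1 RPKM through *Cbx1* at 102.3, *Cbx3* at 82.3, *Cbx5* at 51.0, *Ehmt2* at 50.4, *Atrx* at 44.8, *Setdb1* at 39.9, *Daxx* at 34.5 and *Suv39h2* at 11.4 to *Suv39h1* at 9.003 RPKM. *Cbx5* and *Ehmt2* overlapped between their WT libraries. In G3 *Terc*-/- ESCs, *Trim28* was at 668.4 RPKM and *Cbx1* at 67.8 RPKM, while *Cbx3* at 34.8 RPKM stood below *Setdb1* at 39.2 RPKM and overlapped with *Daxx* at 32.6 RPKM. This order depended on the length used. With the same CPM divided by coding length, *Cbx5* had the highest value in WT at 800.2 RPKM, above *Trim28* at 652.5 RPKM. Reads outside the coding bases stay in the CPM and can raise this value for *Cbx5*. It therefore does not show that *Cbx5* exceeds *Trim28*. By this measure, in G3 *Terc*-/- ESCs *Cbx3* at 124.4 RPKM stood above *Setdb1* at 46.6 RPKM and *Atrx* at 46.0 RPKM above *Daxx* at 41.6 RPKM. *Suv39h1* and *Suv39h2* had the lowest levels of the 10 in WT by either length. In level per exon length over all 4 libraries, *Trim28* stood at the percentile 99.4 of the tested genes with a known exon length, and *Suv39h1* and *Suv39h2* stood at 56.0 and 60.8.

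The genes around each member were then compared with it, since neighbours on a chromosome can shift together. Within 1 Mb of *Cbx3*, 14 genes other than it were tested, of which 6 were lower by edgeR's adjusted p and the rest not called, with a median log2 fold change of -0.55, and 2 were lower than *Cbx3* itself. *Hnrnpa2b1*, which encodes an RNA-binding protein and starts 106 bp from *Cbx3* on the other strand, was at 1375 and 1438 CPM in WT and at 805.8 and 864.9 CPM in G3 *Terc*-/- ESCs (log2 fold change -0.75, edgeR adjusted p = 5.99e-17). *Snx10*, a sorting nexin gene 40196 bp past the other end, went from 44.5 and 48.2 to 19.4 and 21.2 CPM (log2 fold change -1.20, edgeR adjusted p = 3.46e-16). The low level of *Cbx3* was thus shared by its neighbours on either side. Between 45 and 80 Mb of chromosome 6, a stretch drawn after values of these data were known, 102 of 129 tested genes were lower and 1 was higher, with a median of -0.90, whereas over all of chromosome 6 there were 215 lower and 235 higher of 691. *Cbx3* was lower than the median gene of that stretch, but 23 of its 129 genes were lower than *Cbx3*. From exome sequencing, the study reports a deletion of part of the chromosome that holds this stretch, in *Terc*-/- ESCs of the same and of the next generation. It reports the deletion again from maps of chromosome contacts in *Terc*-/- ESCs of the next generation. Whether that deletion covers *Cbx3* or this stretch in the cells sequenced here was not tested. The part of the stretch, or of such a deletion, in the change of *Cbx3* was not tested either.

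**Figure D4:**
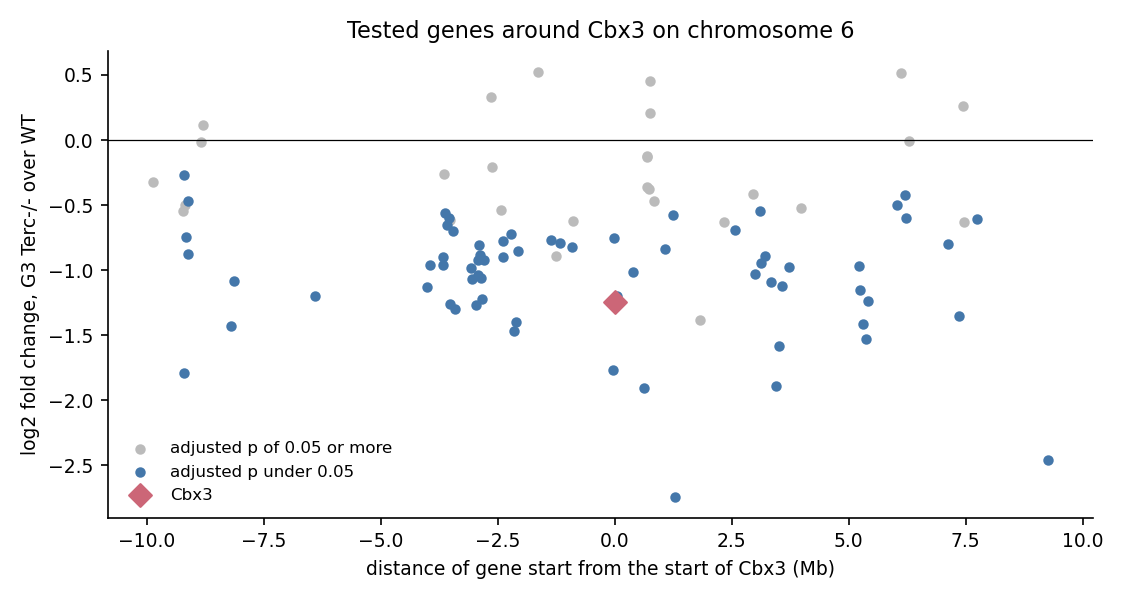
Log2 fold change (G3 *Terc*-/- over WT) of the tested genes within 10 Mb of *Cbx3*, against the distance of their start from that of *Cbx3* in Mb. Most points lie below 0 on both sides of *Cbx3* (diamond, -1.24), in blue where the adjusted p is under 0.05.

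Around the other called members, calls in both directions were found. Over all genes tested, 21.8% were lower and 21.7% higher. Within 1 Mb of *Atrx*, 2 of 12 tested genes were lower and 2 higher, the median log2 fold change was 0.040, and 1 gene was lower than *Atrx*. On the X chromosome as a whole, 133 genes were lower and 98 higher of 529 tested, with a median of -0.018. *Xist*, the RNA of the inactive X chromosome, was at 17.0 and 11.7 CPM in WT and at 12.4 and 10.5 CPM in G3 *Terc*-/- ESCs. It was called lower, although the groups overlapped (log2 fold change -0.32, edgeR adjusted p = 0.0467). The Y-linked genes *Kdm5d*, *Ddx3y*, *Uty* and *Eif2s3y* were detected in all 4 libraries. Each was called higher, with log2 fold changes of 2.77, 2.38, 0.98 and 0.49. Around *Cbx1*, 15 of 56 genes were lower and 6 higher with a median of -0.095, and 1 was lower than *Cbx1*. The nearest tested genes on either side of *Cbx1*, *Snx11* and *Nfe2l1*, named here after their values were seen, were lower too, with log2 fold changes of -0.36 and -0.35 (edgeR adjusted p = 7.42e-04 and 1.61e-07). Around *Ehmt2*, 22 of 111 were lower and 26 higher, and around *Trim28*, 1 of 19 was lower and 5 were higher, with medians of 0.016 and 0.17. *Cbx5*, like *Cbx3*, starts head to head with a gene of an RNA-binding protein, *Hnrnpa1*, named here after its values were seen. *Hnrnpa1* starts 39 bp from *Cbx5* and was at 2131 and 2219 CPM in WT and at 2115 and 2146 CPM in G3 *Terc*-/- ESCs (log2 fold change -0.03, edgeR adjusted p = 0.63).

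The DNA before the start of the 5 called genes is shown next to let a reader compare the promoters of genes that changed. Each window of 250 bases before the start in RefSeq (GRCm38.p6) was searched on both strands for the CCAAT box (CCAAT), the GC box (GGGCGG), an ETS motif (CCGGAAG) and the TATA box (TATAAA), and only the stretch free of annotated exons is printed, with these motifs in capitals. The windows of *Cbx1* and *Cbx3* lie inside the annotated span of the gene, before a start that is not its outermost.
Trim28, chr7:13023902-13024151, plus strand: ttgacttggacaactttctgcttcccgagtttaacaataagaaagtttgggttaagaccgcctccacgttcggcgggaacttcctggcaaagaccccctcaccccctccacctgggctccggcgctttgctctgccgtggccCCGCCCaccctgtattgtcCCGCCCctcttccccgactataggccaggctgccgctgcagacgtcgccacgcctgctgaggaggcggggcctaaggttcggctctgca
Cbx1, chr11:96788885-96789126, plus strand: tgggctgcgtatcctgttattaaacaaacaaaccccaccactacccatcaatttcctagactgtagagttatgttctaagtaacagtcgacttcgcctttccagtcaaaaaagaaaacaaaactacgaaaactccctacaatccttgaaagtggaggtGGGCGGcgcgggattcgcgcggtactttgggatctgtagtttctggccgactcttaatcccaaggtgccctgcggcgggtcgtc
Cbx3, chr6:51470432-51470529, plus strand: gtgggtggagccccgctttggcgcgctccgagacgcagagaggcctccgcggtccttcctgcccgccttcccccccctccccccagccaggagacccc
Atrx, chrX:105929404-105929622, minus strand: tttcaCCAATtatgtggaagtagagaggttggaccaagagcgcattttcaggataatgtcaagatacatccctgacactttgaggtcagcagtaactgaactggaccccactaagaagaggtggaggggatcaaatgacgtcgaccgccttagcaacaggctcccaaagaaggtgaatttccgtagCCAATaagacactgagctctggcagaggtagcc
Ehmt2, chr17:34898266-34898468, plus strand: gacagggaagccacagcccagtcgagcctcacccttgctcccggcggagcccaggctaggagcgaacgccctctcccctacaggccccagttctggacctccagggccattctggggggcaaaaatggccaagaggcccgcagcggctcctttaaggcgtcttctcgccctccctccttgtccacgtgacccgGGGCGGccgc
In the full windows, none of the 10 genes held a TATA box, which 13.0% of 27025 promoters held. *Atrx* held 3 CCAAT boxes and no GC box, whereas *Trim28*, *Cbx1*, *Cbx3* and *Ehmt2* held 1 or 2 GC boxes and no CCAAT box. Over all promoters, 34.5% held a CCAAT box and 33% a GC box. The ETS motif, held by 7.07% of promoters, stood in those of *Setdb1* and *Daxx*, both among the genes not called. The windows of *Cbx3* and *Daxx* held 29 CpG dinucleotides each and that of *Atrx* held 6, where the median promoter held 6. None of these 4 motifs was shared by the 4 genes that fell and absent from the others.

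Beyond the 10 genes, 63 genes of the same machinery were listed and 62 were tested, the exception being *Kdm4d*. By edgeR's adjusted p, 12 were higher and 26 lower, with log2 fold changes between -0.96 and 0.76 and a median of -0.068. The shares were 19.4% higher and 41.9% lower, beside 21.7% and 21.8% of all genes tested. Of the genes at 500 counts or more, 22.2% were higher and 28.5% lower. The further genes were not limited to that level, and some, such as *Mecom* and *Senp7*, lay below it. Fewer of them were called when either WT library was left out, which left 1 library for WT. Fewer of all genes tested were called then as well. With DESeq2 on all 4 libraries, 7 were higher and 22 lower. Over all genes, DESeq2 called 1922 higher and 2256 lower, in place of 3238 and 3241. Without the genes of chromosome 6, 11 were higher and 24 lower of 57.

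Among the chromatin remodellers of heterochromatin, 4 of 7 were lower and 1 was higher. For this and the roles below, the background over all genes tested was 21.8% lower and 21.7% higher. *Smarcad1*, which helps to restore silent chromatin after replication, went from 167.3 and 172.7 to 81.4 and 93.4 CPM (log2 fold change -0.96, standard error 0.059, edgeR adjusted p = 1.61e-17). It lies in the stretch of chromosome 6 from 45 to 80 Mb, where the median log2 fold change was -0.90. *Smchd1*, needed for silencing of the inactive X chromosome, went from 149.3 and 150.2 to 89.5 and 94.1 CPM (log2 fold change -0.71, standard error 0.056, edgeR adjusted p = 4.38e-14). Both were thus lower in each G3 *Terc*-/- library than in either WT library.

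Among the partners of the H3K9 methyltransferases, 3 of 8 were higher and 2 lower. *Cdyl*, a chromodomain factor that works with G9a, went from 81.6 and 86.9 to 49.2 and 52.7 CPM (log2 fold change -0.73, standard error 0.066, edgeR adjusted p = 2.87e-12). *Atf7ip2*, a relative of the SETDB1 cofactor gene *Atf7ip*, went the other way, from 16.7 and 15.5 to 24.5 and 30.4 CPM (log2 fold change 0.76, standard error 0.098, edgeR adjusted p = 1.80e-08). Of the other H3K9 methyltransferases, 2 of 5 were higher and 1, *Ehmt1*, was lower. *Setdb2*, the relative of *Setdb1*, was at 15.9 and 16.6 CPM in WT and at 16.4 and 19.2 CPM in G3 *Terc*-/- ESCs and was not called (log2 fold change 0.13, edgeR adjusted p = 0.338).

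Among the genes of H3.3 and histone chaperones, which include the alternative to ATRX-DAXX for placing H3.3, 5 of 10 were lower and 1 was higher. The latter was *Ubn2*, of the HIRA complex, which lies on chromosome 6 outside that stretch. It went from 59.0 and 52.4 to 80.7 and 92.1 CPM (log2 fold change 0.63, standard error 0.070, edgeR adjusted p = 4.19e-10). In the SUMO pathway, by which TRIM28 is modified to recruit SETDB1, 3 of 8 were lower, and whether any was higher is not reported here. Of the HUSH complex and MORC ATPases, which silence young retrotransposons with SETDB1, 3 of 5 were lower and the other 2 not called, with a median log2 fold change of -0.16. Of the H3K9 demethylases, which remove the mark, 4 of 9 were lower and 1 was higher. These were shares of 44.4% and 11.1%, beside 21.8% and 21.7% of all genes tested. Of the genes at 500 counts or more, a level that *Phf2* of this list did not reach, the shares were 28.5% and 22.2%. Among the lower ones, *Kdm3a*, named here after its values were seen, lies in the stretch of chromosome 6 from 45 to 80 Mb. The share over all genes tested stands beside each role, and with lists this short, no share was tested against that of other genes. The HP1-interacting factors had 3 lower and 2 higher of 7, and the H4K20 methyltransferases had 1 each of 3.

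**Figure D5:**
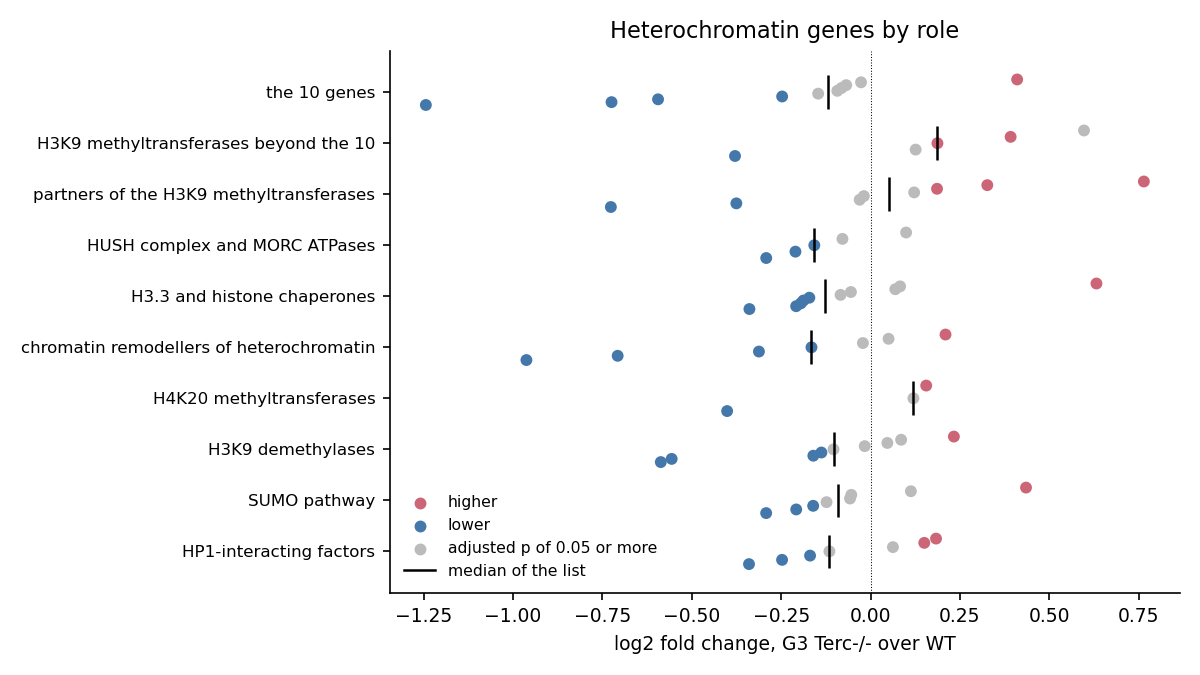
Log2 fold change (G3 *Terc*-/- over WT) of the 10 genes and of the 62 further genes tested, one row for each role, with a bar at the median of the row. Blue and red points mark lower and higher genes by adjusted p, and the points farthest to the left are *Cbx3* at -1.24 and *Smarcad1* at -0.96.

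As another readout of the same libraries, 4 retrotransposon families known to be held by this machinery or by its partners were taken from the counts on transposable elements (TEs), given as CPM of the TE counts. Of 917 TE families tested, 24.8% were called in either direction. IAPEz-int, the internal part of IAP elements, was at 2111 and 2170 CPM in WT and at 2360 and 2496 CPM in G3 *Terc*-/- ESCs (log2 fold change 0.18, edgeR adjusted p = 0.00632). MMERVK10C-int went from 701.8 and 675.6 to 982.1 and 1022 CPM (log2 fold change 0.54, edgeR adjusted p = 2.21e-05). MERVL-int, of the endogenous virus active in 2-cell embryos, was higher as well, from 680.1 and 659.7 to 3593 and 3421 CPM. ETnERV-int, of the early transposons, was lower, from 4974 and 5078 to 997.2 and 1029 CPM, with log2 fold changes of 2.39 for MERVL-int and -2.31 for ETnERV-int (edgeR adjusted p = 2.69e-11 and 1.75e-11). The families thus moved in both directions in libraries in which *Trim28* was higher, *Setdb1* was not called and *Cbx3*, *Cbx1* and *Atrx* were lower, and whether one bears on the other was not tested.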

How the data were processed

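RNA of 2 WT and 2 G3 *Terc*-/- ESC libraries was sequenced in pairs. Per the labels and the study's methods, the authors trimmed reads with Trim Galore, aligned them to mm10 with STAR and counted them with featureCounts, and they deposited raw counts per gene and per TE copy, without normalization. The tool versions, the annotation used for counting and its strand setting are not given in the sources used here, so reads of overlapping genes may be shared. Of 24116 gene identifiers, 24061 matched a symbol in RefSeq (GRCm38.p6). The counts per library bound the precision, and intervals cover the spread between these libraries.

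Fold changes were computed in R 4.3.3 with edgeR 4.0.16 (TMM, filterByExpr, genotype as the only term) on whole tables, and p-values were adjusted over all features tested. TE copies were summed by repeat name. RPKM was computed here from CPM and the exon length of GENCODE M21. Where coding length is named, the same CPM of the whole gene was divided by the coding length. The study's Cufflinks analysis was not repeated. The fit was tested on simulated counts. Alternatives were DESeq2 1.42.0, its size factors in edgeR, TMM without chromosome 6, other count filters, the replicate number as a block, other lengths and each library left out. Leaving chromosome 6 genes out of the lists and *Fn1* out of the feeder sum was added after seeing the data. So was coding length for the order of the genes, the HP1 sum, the share of *Cbx1* and the *Atrx* to *Daxx* ratio. The labels do not say that replicates are separate cultures, and the methods call them biological, so p-values measure the spread between these libraries. Beyond the 10 genes, the text names by rule up to 3 called genes of the lists in each direction with the smallest p, *Ehmt1* and *Setdb2*, the nearest neighbours of a member whose neighbours moved one way, *Terc*, *Xist*, 4 Y-linked genes and 4 TE families. One result under this rule is not reported here. The members and all lists were chosen with earlier results of these data known.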

Additional observations from a re-analysis of the deposited data

How the results depend on the processing

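Across 10 alternatives, *Trim28* (log2 fold change 0.36 to 0.45), *Cbx1* (-0.64 to -0.55), *Cbx3* (-1.32 to -1.17), *Atrx* (-0.83 to -0.63) and *Ehmt2* (-0.34 to -0.17) were called in each, and *Setdb1*, *Daxx*, *Suv39h1* and *Suv39h2* in none. *Cbx5* was called in 2, with the replicate block (log2 fold change -0.0934, edgeR adjusted p = 0.040) and without G3 *Terc*-/- replicate 2 (-0.124, 0.016), with adjusted p from 0.016 to 0.393 over all alternatives. *Suv39h1* ranged from -0.1996 to 0.07148 with a library left out (edgeR adjusted p 0.12 to 0.686 over all alternatives), the latter without WT replicate 2. With DESeq2, 1922 genes were higher in place of 3238 and 2256 lower in place of 3241. Of the further genes of the machinery, 7 were then higher in place of 12 and 22 lower in place of 26. With a mean of at least 50 counts required, 285 genes passed the study's cutoff as higher in place of 704 and 271 as lower in place of 466, since fewer genes were tested. With each library left out in turn, 5 to 12 of the further genes were higher and 16 to 27 lower. The share of *Cbx3* among the HP1 genes differed by -8.64 percentage points with coding length, by -8.29 with raw counts and by -12.3 to -11.3 with a library left out. The *Atrx* to *Daxx* ratio of RPKM differed by -0.62 with coding length in place of -0.47. Leaving out chromosome 6 left 3 members lower in place of 4. Over all tested genes, the deviations of same-numbered libraries had a correlation of 0.062. The summed feeder markers were lower in replicate 2 than in replicate 1 of both genotypes (1878 to 1590 CPM in WT, 2485 to 2126 CPM in G3 *Terc*-/- ESCs). Whether the replicate numbers pair the libraries is thus not settled. With the block, 5 members were lower and 1 higher, and 3551 genes were higher and 3583 lower. With 2 libraries and 1 line per genotype, the spread between lines was not measured, and the smallest exact permutation p was 0.33. The 4 TE families kept their direction and call in all alternatives.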
